A study of Homo sapiens with 132 samples.

Results

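The lysosome and autophagy genes analysed here were 40 genes named by symbol, of 65217 gene identifiers in each count table, followed through every RNA sequencing library made from 4 lines of gastric cancer cells. They comprised 3 lysosomal membrane proteins (LAMP1, LAMP2 and the channel MCOLN1), 8 cathepsins, 6 other lysosomal hydrolases and luminal proteins, 12 subunits or partners of the vacuolar proton pump (V-ATPase), the transcription factors TFEB, TFE3 and MITF, and 8 autophagy genes. MKN1, MKN7, NCI-N87 and Hs746T are established lines from metastases of gastric carcinomas, so each describes 1 line. MKN1 and Hs746T cells were cultured without treatment or with EGF at 5 ng/ml, cetuximab (1 µg/ml), EGF + cetuximab, trastuzumab (5 µg/ml), afatinib (0.5 µM) or trastuzumab + afatinib. MKN7 and NCI-N87 cells received the same treatments without those that contain EGF or cetuximab. Every treatment was sampled after 4 h and after 24 h with 3 replicates, giving 44 groups. MKN1, MKN7 and NCI-N87 cells grew in RPMI medium and Hs746T cells in DMEM, both with 10% fetal calf serum. The labels name no solvent control, so afatinib was compared with untreated cells, and nothing in the labels says whether replicates were separate cultures, so p-values measure the spread between these libraries. The study classes NCI-N87, MKN1 and MKN7 as responders to afatinib and Hs746T as a non-responder, and MKN1 as a responder to cetuximab.

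Lysosomes degrade material delivered by endocytosis and by autophagy. The V-ATPase pumps protons into the lumen, the acid activates hydrolases such as the cathepsin proteases, and the heavily glycosylated proteins LAMP1 and LAMP2 line the membrane. In autophagy the kinase ULK1 starts the process, the membrane protein ATG9A and the lipid kinase partners BECN1 and UVRAG help to form the autophagosome, MAP1LC3B and GABARAPL1 are attached to its membrane, and SQSTM1 carries cargo to them. TFEB, TFE3 and MITF bind a short palindrome in the promoters of many of these genes. The kinase complex mTORC1, which acts downstream of growth factor receptors, holds TFEB in the cytoplasm. EGF is a ligand of the receptor EGFR, cetuximab is an antibody against EGFR, trastuzumab is an antibody against the receptor HER2, and afatinib is an irreversible inhibitor of the kinases of the EGFR family.

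The promoters of these genes were read from RefSeq (GRCh38.p14) as 250 bases before to 50 bases after the annotated start, and 29 of the 40 genes had an entry. The palindrome CACGTG, which reads the same on both strands, was present in 9 of the 29 promoters (31.0%) and in 7.43% of all 27305 promoters of that length. Its extension TCACGTGA was present in 5 of the 29 (17.2%) and in 1.04% of all promoters. Promoters with the longer form are also counted for the shorter one. Stretches of the 100 bases before the start are printed for genes whose values are described below, 6 of them with CACGTG (in capitals) and 3 without it, namely GRN, ULK1 and GABARAPL1.
GAA (chr17:80101481-80101580, plus strand): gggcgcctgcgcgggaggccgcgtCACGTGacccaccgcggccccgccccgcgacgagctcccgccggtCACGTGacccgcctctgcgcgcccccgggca
MCOLN1 (chr19:7522524-7522623, plus strand): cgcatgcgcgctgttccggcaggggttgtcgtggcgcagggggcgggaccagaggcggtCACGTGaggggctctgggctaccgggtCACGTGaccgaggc
CTSA (chr20:45891235-45891334, plus strand): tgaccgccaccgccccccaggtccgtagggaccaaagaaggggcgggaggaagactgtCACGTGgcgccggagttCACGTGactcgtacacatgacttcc
CTSF (chr11:66568607-66568706, minus strand): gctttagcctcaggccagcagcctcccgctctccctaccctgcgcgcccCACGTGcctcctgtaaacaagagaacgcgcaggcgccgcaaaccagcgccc
LAMP1 (chr13:113297139-113297238, plus strand): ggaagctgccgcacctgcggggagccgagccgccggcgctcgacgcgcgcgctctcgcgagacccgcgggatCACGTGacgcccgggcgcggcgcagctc
ATP6V0B (chr1:43974860-43974959, plus strand): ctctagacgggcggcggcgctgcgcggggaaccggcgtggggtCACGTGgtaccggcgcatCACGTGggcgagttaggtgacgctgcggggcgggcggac
GRN (chr17:44345202-44345301, plus strand): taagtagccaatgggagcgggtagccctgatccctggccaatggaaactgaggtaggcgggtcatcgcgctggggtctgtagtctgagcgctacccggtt
ULK1 (chr12:131894522-131894621, plus strand): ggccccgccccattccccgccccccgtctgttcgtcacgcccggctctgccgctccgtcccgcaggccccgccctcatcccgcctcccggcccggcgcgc
GABARAPL1 (chr12:10212777-10212876, plus strand): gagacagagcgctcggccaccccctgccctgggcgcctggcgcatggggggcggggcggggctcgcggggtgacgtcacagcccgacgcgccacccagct
GAA, MCOLN1, CTSA and ATP6V0B each held 2 copies in the printed stretch. LAMP1 held 1 in the stretch and 6 in the whole promoter. The forkhead motif GTAAACA, searched on both strands, was present in CTSF and CTSL (6.9% of the 29) and in 3.41% of all promoters. A match is a description of letters and not a measured binding site.

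Total counts per library ranged from 25832557 to 69434151 with a median of 50725775, so the limit that 3 counts set lay between 0.0432 and 0.116 CPM (counts scaled to a common library size). DUSP6, a target gene of the MAP kinase pathway, served as a check of treatment. After 24 h its untreated and afatinib levels were 15.5, 14.5 and 41.2 against 1.22, 1.15 and 1.20 CPM in MKN1 and 33.6, 43.9 and 42.3 against 32.5, 38.0 and 45.9 CPM in Hs746T. Of 6 epithelial markers, the keratins KRT8, KRT18 and KRT19 were present in all lines, lowest in Hs746T (KRT19 at 19.3 to 50.4 CPM there and 801 or more in the others). The adhesion proteins CDH1 and EPCAM were high in MKN7 and NCI-N87 (188 to 382 and 301 to 643 CPM) and reached at most 7.01 and 39.9 CPM in MKN1 and Hs746T, whereas CLDN4 was lowest in MKN1 (3.99 to 21.0 CPM) and stood at 268 to 427 CPM in Hs746T. Of 5 mesenchymal markers, VIM, FN1, CDH2 and ZEB1 had their highest median in Hs746T (VIM 1398 to 1962 CPM) and SPARC in MKN1. Of 5 fibroblast markers, COL1A1 and COL1A2 were high in Hs746T (374 to 697 and 116 to 193 CPM), and COL3A1 and PDGFRB stayed at or below 14.04 CPM. THY1 was listed at 0 in every library, as were GLA, ATP6V0C and WIPI1 (below), so its 0 is not read as absence. Of 6 haematopoietic and macrophage markers, C1QA, AIF1 and PTPRC stayed at or below 0.67 CPM in every library, while CD14 reached 10.6 CPM in MKN1 and ITGAM 14.3 CPM in MKN7. Of the 40 lysosome and autophagy genes, 36 passed the filter on low counts in each line. GLA, ATP6V0C and WIPI1 were listed at 0 in every library and HEXA at no more than 8 counts, and the exons of GLA, ATP6V0C and WIPI1 lie wholly inside other annotated genes. CTSD has 97.1% of its exon bases inside other genes, close to the 99.0% of HEXA, so its counts, its level per kb of exon and its rank among the genes are uncertain. CTSA, ATP6V1D, TFEB, SQSTM1 and MAP1LC3B have 24.0% to 34.7% of theirs inside other genes, and their counts are less certain too.

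The untreated cells were compared first, to show the levels from which each line started. PSAP, which encodes the precursor of the saposin activators of sphingolipid breakdown, had the highest level per kb of total exon of all 36 genes in every line, with the level of CTSD uncertain. Several cathepsins were close to absent in 1 line and abundant in another, whereas the 11 proton pump subunits and partners tested lay between 6.85 and 60.3 CPM per kb of exon in all 4 lines. Levels are means ± SD over 6 untreated libraries per line (3 at 4 h and 3 at 24 h).

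PSAP stood at 307 ± 16.8 CPM per kb in MKN1, 246 ± 25.7 in MKN7, 398 ± 22.9 in NCI-N87, while Hs746T held 1323 ± 25.5. The cysteine protease CTSL stood at 121 ± 26.1 CPM per kb in MKN1, 0.948 ± 0.790 in MKN7, 23.4 ± 3.51 in NCI-N87, while Hs746T held 125 ± 15.6. Thus MKN7 lacked most of the CTSL RNA that the other lines held, and within it the 6 libraries ran from 0.224 to 1.95 CPM per kb with a median of 0.650. CTSS, a protease best known from antigen-presenting cells, stood at 0.640 ± 0.115, 1.48 ± 0.231, 4.48 ± 0.686 and 26.3 ± 5.14 CPM per kb in the same order of lines. CTSF stood at 27.8 ± 3.65, 31.5 ± 3.62, 0.327 ± 0.236 and 17.1 ± 4.09 CPM per kb, so that NCI-N87 was nearly without it. CTSS was therefore highest in Hs746T and lowest in MKN1, with the order MKN7 below NCI-N87 between them. CTSB stood at 19.3 ± 0.946, 8.15 ± 0.429, 70.8 ± 4.17 and 82.3 ± 4.57 CPM per kb, lowest in MKN7. CTSD, the main aspartic protease of the lysosome, stood at 16.2 ± 1.48, 47.1 ± 6.88, 16.0 ± 1.26 and 6.39 ± 2.07 CPM per kb. For CTSD the order was MKN7, then MKN1 and NCI-N87 at like levels, then Hs746T.

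Among the other luminal proteins, GAA, the acid glucosidase that degrades glycogen, stood at 7.59 ± 1.07, 8.81 ± 0.677, 30.4 ± 3.61 and 6.07 ± 0.991 CPM per kb in MKN1, MKN7, NCI-N87 and Hs746T. GRN, the precursor of granulins, stood at 117 ± 6.57, 105 ± 7.33, 46.4 ± 3.20 and 146 ± 22.3 CPM per kb. NCI-N87 thus had the most GAA and the least GRN. The sialidase NEU1 was listed near 0 in MKN1 (0 to 1.01 CPM over all 42 libraries) and MKN7 (0 to 0.72 CPM over all 24). It reached 16.5 to 64.2 CPM in NCI-N87 and 91.6 to 154 CPM in Hs746T. Identifiers without a gene name were not searched for further counts of NEU1, so its differences between lines are uncertain. Of the transcription factors, TFE3 was the most abundant per length in all lines, at 18.3 ± 1.54, 28.7 ± 1.79, 19.2 ± 2.79 and 47.0 ± 9.74 CPM per kb. TFEB stood at 2.16 ± 0.255, 0.601 ± 0.132, 3.09 ± 0.438 and 0.253 ± 0.0410 CPM per kb, and MITF at 5.14 ± 0.823, 1.76 ± 0.282, 0.135 ± 0.0300 and 0.800 ± 0.377. The lines therefore differed in which of the 3 factors accompanied TFE3, with MITF ahead of TFEB in MKN1, MKN7 and Hs746T and behind it in NCI-N87.

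**Figure D1:**
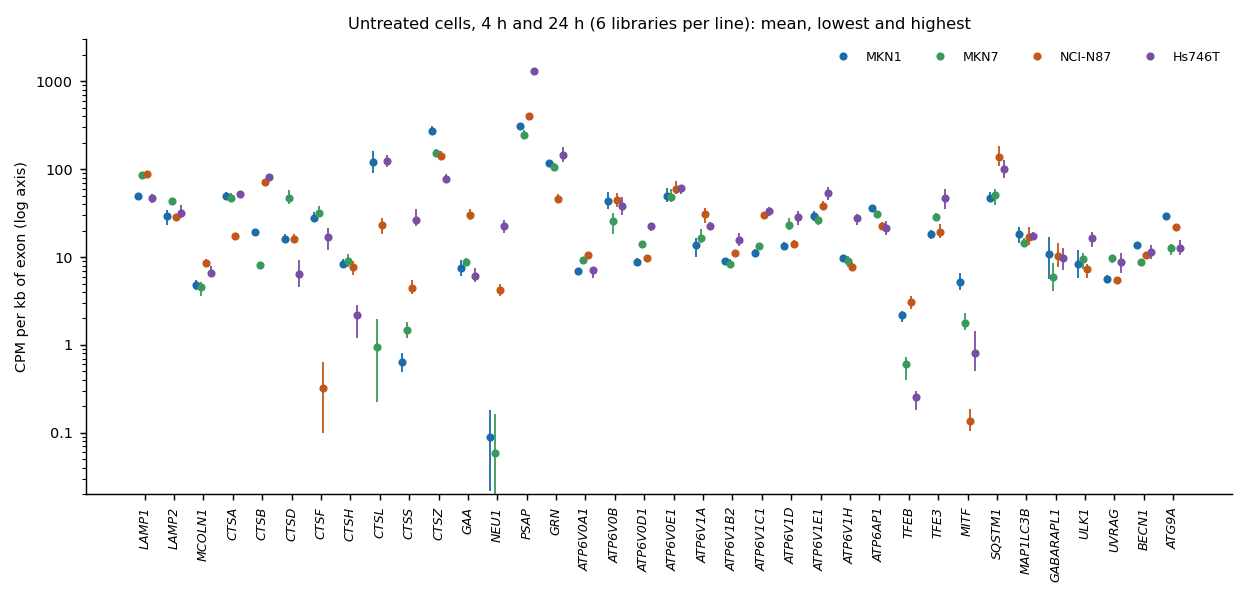
Level per kb of exon of the lysosome and autophagy genes in untreated cells, on a log axis, with the mean (point) and the lowest and highest (line) of the 6 untreated libraries of each cell line. PSAP is highest in all 4 lines, CTSL falls to a mean of 0.95 CPM per kb in MKN7, CTSF to 0.33 in NCI-N87 and NEU1 to 0.09 in MKN1 and 0.06 in MKN7.

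Pairs of untreated lines were tested with edgeR on all libraries together. Counted were genes at an adjusted p below 0.05 that also lay past the fold limit of the study, a log2FC over 1 in either direction. The number of the 36 genes tested that lay past both was 17 for MKN1 against Hs746T (47.8% of the 22832 genes tested passed), 7 for MKN1 against MKN7 (41.4%), 12 for MKN1 against NCI-N87 (45.9%), 11 for MKN7 against Hs746T (45.9%), 13 for MKN7 against NCI-N87 (44.4%) and 17 for NCI-N87 against Hs746T (49.1%). The shares of these genes were thus near or below those of all genes. CTSS and MITF passed in all 6 pairs. The largest differences of CTSS were -5.36 for MKN1 minus Hs746T and -4.15 for MKN7 minus Hs746T, and the largest of MITF was 5.25 for MKN1 minus NCI-N87. Hs746T lay past the limit above all 3 other lines for ATP6V1H, CTSS, NEU1 and PSAP and below them for CTSD, CTSH and TFEB. NCI-N87 lay above the others for GAA and below them for CTSA, CTSF, GRN and MITF. MKN7 lay above the others for CTSD and below them for CTSB and CTSL, and MKN1 above them for MITF and below them for CTSS. In 1 pair, MKN7 against NCI-N87, the count fell to 8 without the genes that lie inside other genes or near 0. Hs746T was also the line grown in another medium, so line and medium cannot be told apart.

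Afatinib was compared with untreated cells to show how inhibition of the receptor kinases acted on these genes. After 24 h, the cathepsins CTSA, CTSB, CTSH and CTSS and the luminal proteins GAA, PSAP and GRN were upregulated in each of MKN1, MKN7 and NCI-N87, the 3 lines classed as responders, together with ULK1. GABARAPL1 was upregulated in MKN7 and NCI-N87. The other cathepsins differed between lines, and CTSZ was lower in NCI-N87. Most proton pump subunits did not pass the test. The transcripts of TFE3 and MITF were not called at 24 h in any line and TFEB was called lower in NCI-N87 only. In bulk RNA, a change in the share of cells of one kind and a change in the RNA of each cell cannot be told apart.

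In MKN1, 13 of the 36 genes tested were higher (12.2% of all genes were called higher) and 1 was lower (13.3%), with 0 past the fold limit (4.19%). In MKN7, 14 were higher (26.6% of all genes) and 3 lower (25%), with 1 past the fold limit (13.5%). In NCI-N87, 13 were higher (31.5%) and 8 lower (31%), with 5 past the fold limit (29.6%). The share of these genes called higher was thus above that of all genes in MKN1 and MKN7 and close to it in NCI-N87, and the shares called lower or past the fold limit were below those of all genes in each line. The median log2FC was 0.14 in MKN1, 0.12 in MKN7 and 0.03 in NCI-N87, against 0.01, 0.04 and 0.03 over all genes tested. Higher in all 3 lines were 8 genes, CTSA, CTSB, CTSH, CTSS, GAA, PSAP, GRN and ULK1, and lower in all 3 was ATP6V1B2. Of the 36 genes, 9 were called in none of the 3 lines. The shares of all genes called in all 3 lines or in none were not counted, so these numbers have no background beside them.

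**Figure D2:**
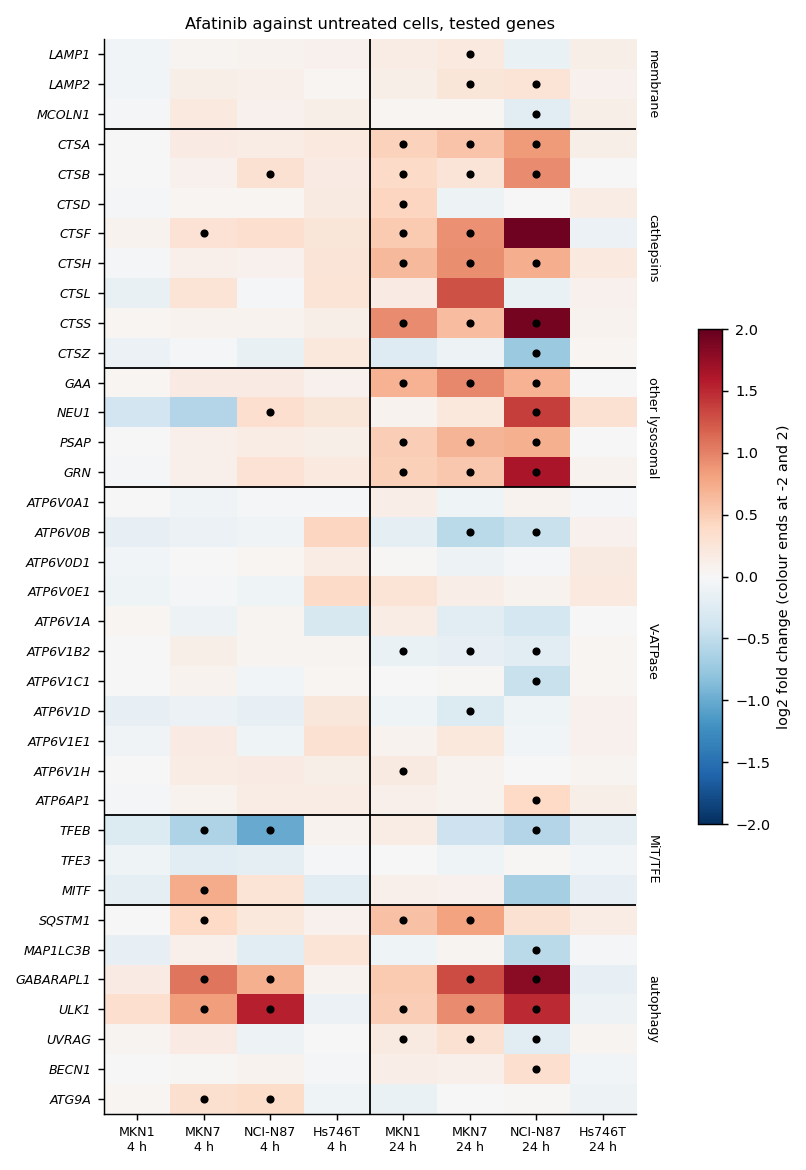
Log2FC of afatinib against untreated cells for the 36 genes tested (rows, grouped by role) in the 4 lines at 4 h and 24 h (columns), with colour from −2 to 2 and a dot in cells at an adjusted p below 0.05. The cathepsin, luminal protein and autophagy rows carry most marks of upregulated genes at 24 h in MKN1, MKN7 and NCI-N87. Further such marks lie at LAMP1, LAMP2, ATP6V1H and ATP6AP1, and CTSZ, MAP1LC3B and UVRAG carry marks of falls in NCI-N87. The Hs746T columns carry no marks.

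The cathepsins held 6 of 8 genes called higher in MKN1, 5 of 8 in MKN7 and 4 of 8 in NCI-N87, with CTSZ called lower in NCI-N87. Of all genes, 12.2%, 26.6% and 31.5% were higher in the same order of lines. Their median log2FC was 0.44 in MKN1, 0.59 in MKN7 and 0.79 in NCI-N87. CTSA, which protects NEU1 and is itself a serine carboxypeptidase, stood at 291, 326 and 281 CPM in untreated replicates 1, 2 and 3 of MKN1 and at 388, 440.2 and 404 CPM with afatinib (log2FC 0.46 ± 0.10 (SE), adjusted p = 0.000724). In MKN7 it stood at 296, 247 and 259 CPM untreated and 432, 358 and 397 CPM with afatinib (0.57 ± 0.09 (SE), adjusted p = 2.99e-05). In NCI-N87 it stood at 112, 114 and 101 CPM untreated and 203, 196 and 189 CPM with afatinib (0.85 ± 0.09 (SE), adjusted p = 5.02e-08). The afatinib and untreated libraries did not overlap in any of these 3 lines.

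CTSS rose most among the cathepsins called in MKN1 and in NCI-N87. In MKN1 it went from 3.38, 3.02 and 2.10 to 5.79, 3.97 and 6.72 CPM (log2FC 0.95 ± 0.19 (SE), adjusted p = 0.000359). In MKN7 it went from 5.81, 4.86 and 6.68 to 9.75, 8.54 and 8.38 CPM (0.62 ± 0.17 (SE), adjusted p = 0.00394). In NCI-N87 it went from 24.0, 19.2 and 17.9 to 84.4, 71.2 and 75.6 CPM (1.92 ± 0.20 (SE), adjusted p = 4.75e-08). All afatinib libraries lay above all untreated ones in each of the 3 lines, and only in NCI-N87 did CTSS pass the fold limit. In Hs746T, where its level was highest, it stood at 144, 102 and 101 CPM untreated and 141, 110.1 and 113 CPM with afatinib, and the groups overlapped.

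CTSH, an aminopeptidase, rose from 61.1, 57.4 and 43.8 to 118, 102 and 89.8 CPM in MKN7 (log2FC 0.93 ± 0.13 (SE), adjusted p = 6.69e-06), the largest rise of a cathepsin called in that line. Its log2FC was 0.65 in MKN1 and 0.73 in NCI-N87, both called higher. CTSB, an abundant cysteine protease, rose from 573, 537 and 577 to 982, 1092 and 1163 CPM in NCI-N87 (0.94 ± 0.10 (SE), adjusted p = 8.17e-08). In MKN1 and MKN7 its rises were smaller, with log2FC of 0.39 and 0.25. CTSF rose by a log2FC of 0.52 in MKN1 and 0.91 in MKN7, and in NCI-N87 its low levels of 1.79, 0.545 and 0.298 CPM untreated and 7.13, 1.80 and 1.32 CPM with afatinib did not pass (1.94 ± 0.85 (SE), adjusted p = 0.0518). Replicate 1 was the highest in both of those NCI-N87 groups. CTSD was called higher in MKN1 only (0.43), and CTSL in none of the lines.

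CTSZ, a carboxypeptidase with the second highest level per kb of total exon in MKN1, MKN7 and NCI-N87 (CTSD being uncertain), moved the other way in NCI-N87. It stood at 320.5, 270.4 and 294 CPM untreated and at 179, 161 and 190.2 CPM with afatinib (log2FC -0.74 ± 0.14 (SE), adjusted p = 0.000136). In MKN1 it stood at 517, 574 and 512 CPM untreated and 436, 512 and 391 CPM with afatinib, which did not pass (0.126 adjusted) but passed when replicate number entered the fit as a block (-0.26 ± 0.08 (SE), adjusted p = 0.0086).

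The other luminal proteins tested, GAA, PSAP, GRN and NEU1, were called higher in 3 of 4 in MKN1, 3 of 4 in MKN7 and 4 of 4 in NCI-N87 (12.2%, 26.6% and 31.5% of all genes). GRN, a regulator of lysosomal function, went from 197, 181 and 176 to 552, 542 and 615 CPM in NCI-N87 (log2FC 1.63 ± 0.12 (SE), adjusted p = 9.74e-11). In MKN1 it went from 455, 468 and 411 to 617, 614 and 621 CPM (0.47 ± 0.09 (SE), adjusted p = 0.000127), and in MKN7 from 413, 359 and 369 to 598, 522 and 544 CPM (0.54 ± 0.08 (SE), adjusted p = 1.89e-05). NCI-N87, the line with the least GRN before treatment, thus came to lie within or near the range of the afatinib levels of MKN1 and MKN7. GAA went from 46.9, 38.1 and 38.8 to 70.3, 57.7 and 72.1 CPM in MKN1 (0.69 ± 0.15 (SE), adjusted p = 0.000877). In MKN7 GAA went from 48.5, 46.3 and 42.0 to 94.0, 85.2 and 87.7 CPM (0.96 ± 0.07 (SE), adjusted p = 4.36e-09). In NCI-N87 it went from 183, 186 and 145 to 279.8, 276 and 275 CPM (0.69 ± 0.08 (SE), adjusted p = 1.17e-07). No afatinib library of these lines overlapped with an untreated one for GAA or GRN.

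PSAP, already the most abundant of these genes, rose from 1432, 1316 and 1253 to 2208, 2136 and 2213 CPM in NCI-N87 (log2FC 0.71 ± 0.10 (SE), adjusted p = 1.82e-06). Its log2FC was 0.50 in MKN1 and 0.69 in MKN7. NEU1 rose from 23.1, 21.2 and 17.8 to 54.9, 51.6 and 54.8 CPM in NCI-N87 (1.38 ± 0.11 (SE), adjusted p = 6.14e-10). In MKN1 and MKN7 the counts of NEU1 were too low to show a change.

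**Figure D3:**
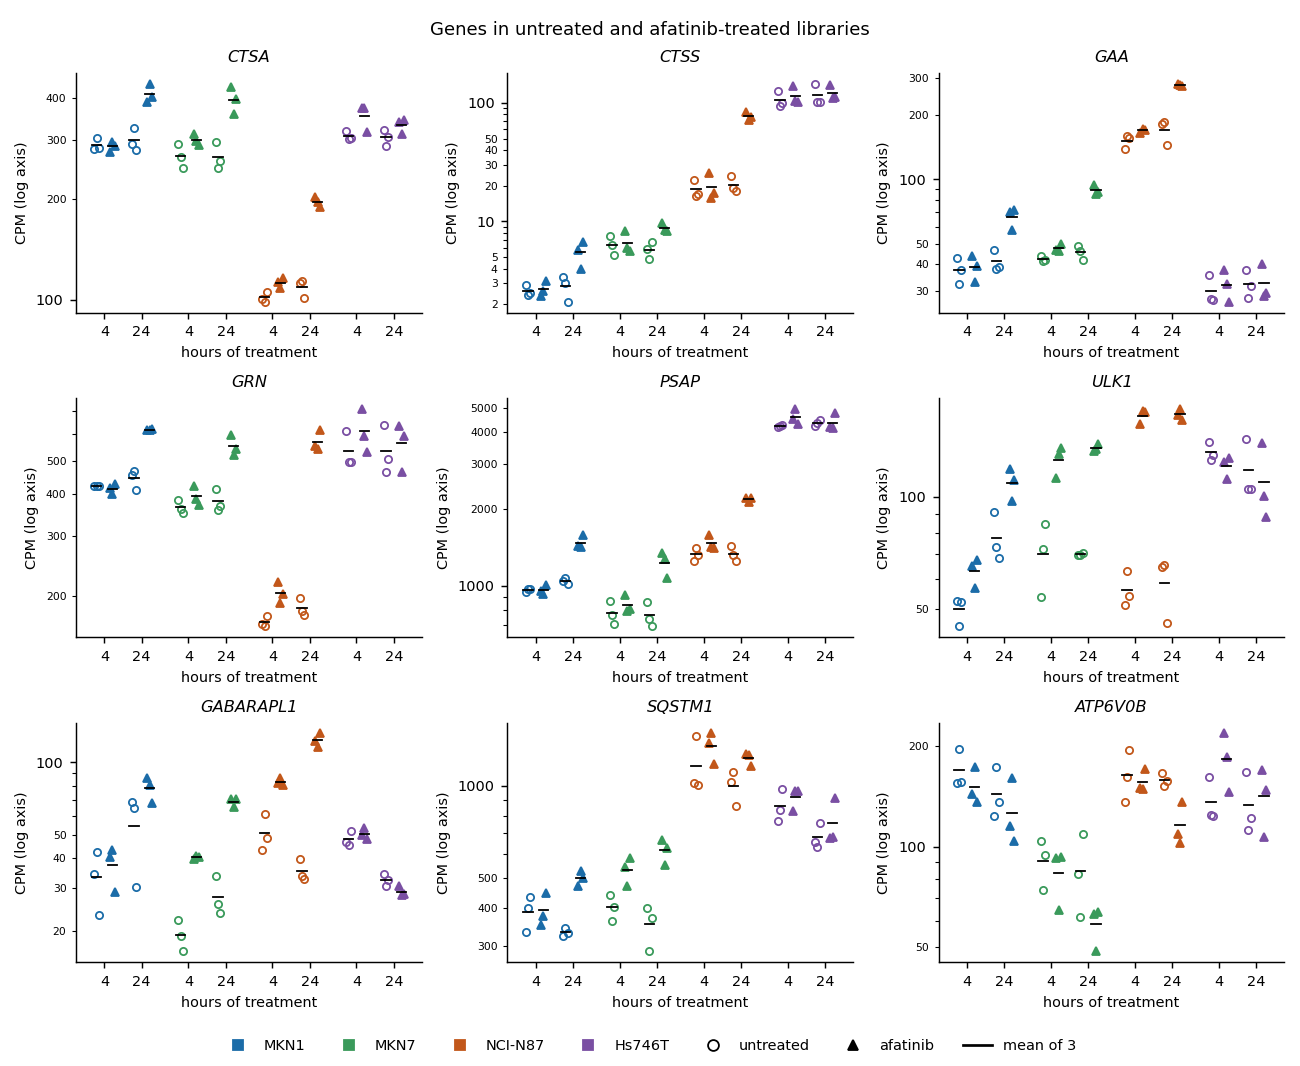
CPM of 9 of the genes in each library of the 4 lines at 4 h and 24 h, on log axes, with open circles for untreated and filled triangles for afatinib libraries and a line at the mean of 3. In NCI-N87 at 24 h the afatinib points lie above the untreated points for GRN (542 to 615 against 176 to 197 CPM) and CTSS, and in Hs746T at 24 h the points of all 9 genes overlap.

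Of the 7 autophagy genes tested, 3 were called higher in MKN1, 4 in MKN7 and 3 in NCI-N87, where 2 were lower. Of all genes, 12.2%, 26.6% and 31.5% were higher in these lines and 31% were lower in NCI-N87. With only 7 genes, the counts in NCI-N87 lay near those shares. ULK1 went from 91.0, 73.3 and 68.6 to 118, 97.5 and 111 CPM in MKN1 (log2FC 0.49 ± 0.13 (SE), adjusted p = 0.00537). In MKN7 it went from 69.6, 69.8 and 70.6 to 133, 134 and 139 CPM (0.95 ± 0.12 (SE), adjusted p = 1.38e-06). In NCI-N87 it went from 64.9, 65.6 and 45.9 to 166, 172 and 160.0 CPM (1.50 ± 0.13 (SE), adjusted p = 2.26e-09), past the fold limit. GABARAPL1, a ubiquitin-like protein of the autophagosome, had the largest rise of all 36 genes called in MKN7 and the second largest in NCI-N87. It went from 33.7, 25.8 and 23.6 to 70.4, 65.0 and 70.3 CPM in MKN7 (1.31 ± 0.12 (SE), adjusted p = 3.82e-08) and from 39.7, 33.6 and 32.9 to 123, 116 and 131.9 CPM in NCI-N87 (1.80 ± 0.11 (SE), adjusted p = 4.42e-12). In MKN1 the untreated libraries were spread over 68.5, 64.9 and 30.2 CPM and the afatinib libraries stood at 86.2, 80.8 and 67.8 CPM. Afatinib replicate 3 lay just under untreated replicate 1, replicate 3 was the lowest of both groups, and the difference was not called (0.52 ± 0.31 (SE), adjusted p = 0.233) but passed with the replicate block (0.59 ± 0.14 (SE), adjusted p = 0.000758).

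SQSTM1, the cargo receptor, rose from 324, 344 and 331 to 473, 527 and 503 CPM in MKN1 (log2FC 0.59 ± 0.13 (SE), adjusted p = 0.00124). In MKN7 it rose from 401, 289.5 and 369.8 to 667, 554 and 627 CPM (0.80 ± 0.11 (SE), adjusted p = 5.91e-06). In NCI-N87 it stood at 1029, 1107 and 862 CPM untreated and 1272, 1261 and 1165 CPM with afatinib, which was not called (0.30 ± 0.15 (SE), adjusted p = 0.081). MAP1LC3B, the relative of GABARAPL1 used as a marker of autophagosomes, fell in NCI-N87 from 81.4, 76.3 and 87.9 to 54.1, 50.9 and 64.3 CPM (-0.54 ± 0.13 (SE), adjusted p = 0.000862). The 2 genes of this protein family thus moved in opposite directions in NCI-N87. UVRAG was called higher in MKN1 (0.19) and MKN7 (0.31) and lower in NCI-N87 (-0.21), where scaling by library size alone turned it to 0.05. BECN1 was called higher in NCI-N87 only (0.33), and ATG9A was not called at 24 h.

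Of 11 proton pump genes, 1 was higher and 1 lower in MKN1, 3 were lower in MKN7, and 1 was higher and 3 lower in NCI-N87. The shares called lower, with 25% of all genes lower in MKN7 and 31% in NCI-N87, were near or below those of all genes, and with library size alone none of the 36 genes was lower in MKN7. Their median log2FC was 0.07 in MKN1, −0.08 in MKN7 and −0.05 in NCI-N87. ATP6V0B, a subunit of the membrane ring, stood at 167, 152 and 158 CPM untreated and 109, 103 and 137 CPM with afatinib in NCI-N87 (log2FC -0.45 ± 0.14 (SE), adjusted p = 0.00866). In MKN7 it stood at 82.9, 61.7 and 109 and 63.0, 48.7 and 63.8 CPM (-0.53 ± 0.20 (SE), adjusted p = 0.0277), with groups that overlapped. ATP6V0B was the largest fall of the group in both lines and carries 2 copies of CACGTG in the stretch printed above. The catalytic sector subunit ATP6V1B2 was lower in MKN1 (-0.13), MKN7 (-0.17) and NCI-N87 (-0.23), and in NCI-N87 library size alone gave 0.03. ATP6V1C1 was lower in NCI-N87 (-0.44) and ATP6V1D in MKN7 (-0.28). The accessory subunit ATP6AP1 was higher in NCI-N87 (0.39 ± 0.11 (SE), adjusted p = 0.00303) and ATP6V1H in MKN1 (0.18).

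Of the membrane proteins, LAMP2 was higher in MKN7 and NCI-N87, with log2FC of 0.25 and 0.28, and LAMP1 in MKN7 (0.19). In NCI-N87 LAMP2 stood at 149, 156 and 174 CPM untreated and 177, 198 and 206 CPM with afatinib. The calcium channel MCOLN1 was lower in NCI-N87 (-0.21), and library size alone turned this to 0.05. TFEB fell in NCI-N87 from 15.6, 19.6 and 20.3 to 12.2, 12.3 and 12.5 CPM (-0.59 ± 0.13 (SE), adjusted p = 0.000435). In MKN1 the log2FC of TFEB was 0.15 and in MKN7 -0.41, neither called. TFE3 had log2FC of 0.00, -0.09 and 0.03 and MITF of 0.10, 0.09 and -0.66 in MKN1, MKN7 and NCI-N87, none of them called.

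**Figure D4:**
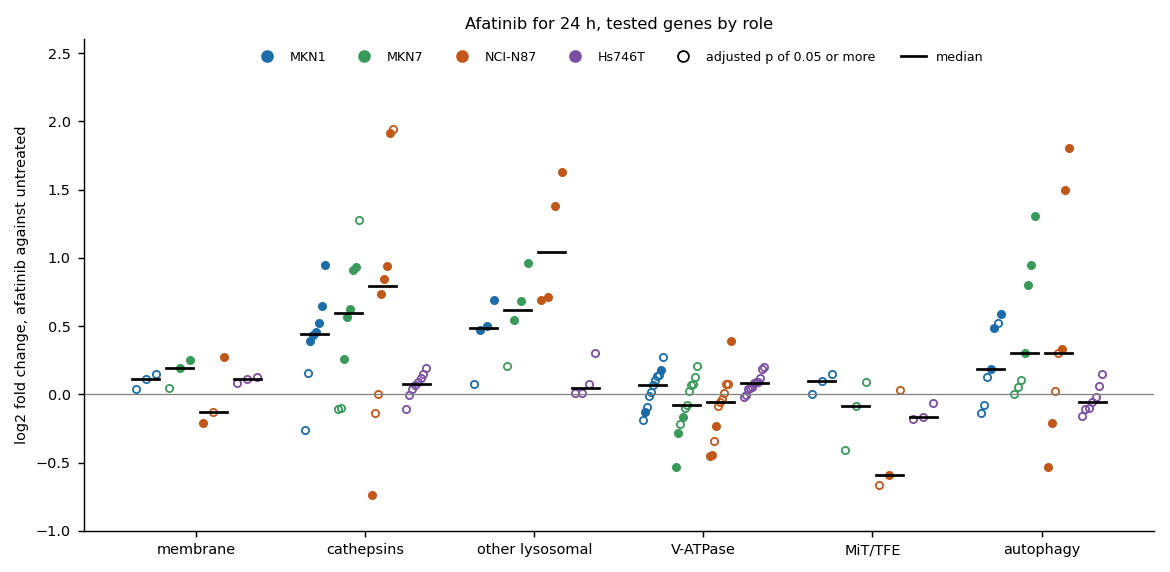
Log2FC of afatinib against untreated cells at 24 h for each gene (points) by role and cell line, filled where the adjusted p was below 0.05, with a black line at the median of each role. In MKN1, MKN7 and NCI-N87 the medians of the cathepsins (0.44, 0.59 and 0.79) and of the other luminal proteins (0.49, 0.61 and 1.04) lie above those of the proton pump genes (0.07, −0.08 and −0.05).

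The counts depended on a few choices. With the replicate block, 3 genes were lower in MKN1 (22% of all genes) and 5 in MKN7 (30.6%), and 2 passed the fold limit in MKN7 (14.3%). Without replicate 3 the count called higher in MKN1 was 7, without replicates 1 or 3 the count called lower in MKN7 was 0, and without replicates 1 or 2 that in NCI-N87 was 4. In MKN1 the count called lower was 0 without replicates 1 or 3 and 4 without replicate 2, and without replicates 1 or 2 the count past the fold limit was 1 in MKN1 and 2 in MKN7. With library size alone in place of TMM factors the median log2FC of all genes moved by 0.11 in MKN7 and 0.26 in NCI-N87, and the genes split into 18 higher and 0 lower in MKN7 (33.2% and 18.4% of all genes) and into 23 higher and 4 lower in NCI-N87 (42.2% and 21.9%).

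After 4 h of afatinib fewer of these genes were called, and most of them were autophagy genes (4 of 6 higher in MKN7 and 3 of 5 in NCI-N87). In MKN7, 6 were higher (10.1% of all genes) and 1 lower (12.1%), with 1 past the fold limit (3.4%). In NCI-N87, 5 were higher (9.06%) and 1 lower (9.1%), with 2 past the fold limit (3.24%). In MKN1, edgeR and DESeq2 each called 0 (3.68% of all genes with edgeR, either direction), with 2 at an unadjusted p under 0.05. ULK1, GABARAPL1 and ATG9A were higher and TFEB lower in both MKN7 and NCI-N87.

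ULK1 went from 51.3, 63.1 and 54.1 to 156, 169 and 168 CPM in NCI-N87 (log2FC 1.55 ± 0.13 (SE), adjusted p = 2.96e-08), as high as its value of 1.50 at 24 h. In MKN7 it went from 53.8, 72.3 and 84.2 to 112, 129.7 and 135 CPM (0.84 ± 0.12 (SE), adjusted p = 2.47e-05). GABARAPL1 went from 22.1, 19.1 and 16.5 to 39.5, 40.7 and 40.6 CPM in MKN7 (1.07 ± 0.12 (SE), adjusted p = 2e-06). Both genes were thus apart from the untreated libraries at the early time in these lines. In NCI-N87 GABARAPL1 went from 43.4, 60.9 and 48.7 to 82.0, 86.3 and 80.8 CPM (0.70 ± 0.10 (SE), adjusted p = 3.43e-05). TFEB fell in NCI-N87 from 14.9, 16.7 and 20.6 to 8.11, 9.11 and 8.74 CPM (-1.01 ± 0.13 (SE), adjusted p = 8.26e-06), past the fold limit. In MKN7 TFEB fell from 4.01, 2.62 and 3.92 to 2.66, 1.83 and 2.34 CPM (-0.62 ± 0.19 (SE), adjusted p = 0.0232), with groups that overlapped. MITF, in contrast, rose in MKN7 from 11.4, 12.1 and 10.6 to 18.7, 21.5 and 16.9 CPM (0.74 ± 0.13 (SE), adjusted p = 0.000279). At 4 h TFE3 had log2FC of -0.08, -0.22 and -0.18 in MKN1, MKN7 and NCI-N87, and MITF had -0.19 in MKN1 and 0.27 in NCI-N87, none called.

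ATG9A was higher at 4 h, with log2FC of 0.31 in MKN7 and 0.37 in NCI-N87, and near 0 at 24 h (0.00 and 0.02). SQSTM1 (0.41) and CTSF (0.29) were also higher in MKN7 at 4 h, and NEU1 (0.34) and CTSB (0.31) in NCI-N87. Few of the cathepsins and luminal proteins called at 24 h were therefore called at 4 h. GRN, for example, had log2FC of 0.29 at 4 h and 1.63 at 24 h in NCI-N87, and CTSS 0.07 and 1.92. The difference between the times was not tested. With the replicate block the count in MKN7 was 12 higher (17.7%) and 2 lower (20.7%), in NCI-N87 3 were lower (16.6%) and 1 passed the fold limit (3.83%), and in MKN1 2 were called (13.2%), namely ULK1 (0.34) and TFEB (-0.28). Without replicates 1, 2 or 3 in turn the count called higher in NCI-N87 was 3, 2 and 3, and without replicate 3 in MKN7 it was 4, with 0 lower and 0 past the fold limit. Without replicate 3 in NCI-N87, 1 gene passed the fold limit.

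In Hs746T, the line classed as a non-responder, edgeR called 0 of these genes at 4 h or 24 h, and no other gene either (0% of all tests). DESeq2 also called 0 of the 36, and 6 at 4 h and 2 at 24 h had an unadjusted p under 0.05 with edgeR. GABARAPL1 stood at 34.4, 30.5 and 32.4 CPM untreated and 30.7, 28.0 and 28.3 CPM with afatinib at 24 h. ULK1 stood at 143, 104 and 105 and 139.6, 100.5 and 88.3 CPM, and GRN at 636, 465 and 505 and 635, 463 and 594 CPM. These groups overlapped, and replicate 1 of the line stood apart for several genes, for example for CTSH with 7.67, 15.8 and 16.9 CPM in untreated replicates 1, 2 and 3. TFEB, TFE3 and MITF had log2FC of -0.18, -0.06 and -0.16 at 24 h and 0.07, -0.04 and -0.21 at 4 h.

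The replicate block, which removes such shifts, led to calls in Hs746T too. At 4 h, 14 were higher (10.3% of all genes) and 1 was lower (8.29%), and at 24 h 1 was higher (0.171%). The largest rise at 4 h was that of ATP6V0B (0.42 ± 0.09 (SE), adjusted p = 0.00275), which went from 161, 124 and 124 to 219, 186 and 146 CPM and was higher in all 3 pairs of replicates. ATP6V0E1 (0.38), ATP6V1E1 (0.29), MAP1LC3B (0.28) and CTSL (0.27) followed, and ATP6V1A was the one that was lower (-0.33). The genes called higher included 5 of the proton pump genes. At 24 h the gene was NEU1 (0.31 ± 0.06 (SE), adjusted p = 0.00617), from 125, 95.3 and 101 to 145, 112 and 139 CPM.

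The differences between lines in the 24 h effect of afatinib were tested as interactions in the fit of all libraries. Of the 36 genes, 13 differed between NCI-N87 and Hs746T (35.1% of all genes did), 6 between MKN7 and Hs746T (18.8%) and 2 between MKN1 and Hs746T (4.41%). Between the responders, 10 differed between MKN1 and NCI-N87 (28%), 7 between MKN7 and NCI-N87 (21.4%) and 0 between MKN1 and MKN7 (7.61%). Between MKN1 and MKN7, DESeq2 also called 0, and 4 genes had an unadjusted p under 0.05 with edgeR. None of the shares lay far above that of all genes. The count for MKN1 against Hs746T was 0 without replicate 2 or replicate 3 and 4 with DESeq2, that for MKN1 against MKN7 was 1 without replicate 1 or replicate 3, and that for MKN1 against NCI-N87 was 6 without replicate 3. With the replicate block the counts rose, to 23 for NCI-N87 against Hs746T (48.6%), 18 for MKN7 against Hs746T (36.1%), 13 for MKN1 against Hs746T (21.4%), 24 for MKN1 against NCI-N87 (44.5%), 20 for MKN7 against NCI-N87 (38.3%) and 9 for MKN1 against MKN7 (25.6%), so that the share of these genes then lay above that of all genes in every pair except MKN1 against MKN7.

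GAA and PSAP were the 2 genes called as rising more than in Hs746T in all 3 other lines, in the fit without the replicate block. The calls against MKN1 were lost in some fits that left out a replicate. A gene not called in a pair may still differ there. For GAA the difference in log2FC from Hs746T was 0.70 ± 0.22 (SE), adjusted p = 0.0442 in MKN1, 0.96 ± 0.22 (SE), adjusted p = 0.000504 in MKN7 and 0.71 ± 0.22 (SE), adjusted p = 0.00559 in NCI-N87. For PSAP it was 0.50, 0.68 and 0.73 in the same order. GABARAPL1 differed from Hs746T by 1.47 in MKN7 and 1.99 in NCI-N87, and ULK1 by 1.06 and 1.63. The rise of GRN was larger in NCI-N87 than in MKN1 (MKN1 minus NCI-N87 -1.17 ± 0.19 (SE), adjusted p = 4.29e-07) and in MKN7 (MKN7 minus NCI-N87 -1.11 ± 0.19 (SE), adjusted p = 2.06e-06). That of CTSB and CTSS was also larger in NCI-N87 than in both, and the falls of CTSZ, ATP6V1C1 and MAP1LC3B set NCI-N87 apart from all 3 other lines.

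The other genes of the pathway, taken from lists that hold none of the 40 genes, were compared at 24 h in the same fits. For all genes tested, 12.2% were higher and 13.3% lower in MKN1, 26.6% and 25% in MKN7, and 31.5% and 31% in NCI-N87. Of 34 other lysosomal hydrolases and activators, 16 were higher and 0 lower in MKN1, 21 higher and 4 lower in MKN7, and 17 higher and 7 lower in NCI-N87, so that the share higher lay above that of all genes in each of these lines and the share lower below it. The largest rises were those of the protease CTSO in MKN1 (log2FC 1.50) and MKN7 (1.43) and of the collagenolytic CTSK in NCI-N87 (1.71), and the largest falls those of CTSC in MKN7 (−1.48) and NCI-N87 (−1.63). CTSC, a dipeptidyl peptidase, thus moved against most hydrolases, as CTSZ did. Of other proton pump genes, 2 of 7 were higher and 1 lower in MKN1, 3 of 8 higher and 2 lower in MKN7, and 1 of 7 higher and 3 lower in NCI-N87. ATP6V1B1 rose most (1.61, 1.50 and 1.47 in MKN1, MKN7 and NCI-N87), with edgeR adjusted p of 0.0446, 0.00617 and 7.38e-06. ATP6V0A2 fell most (−0.40, −0.47 and −0.92), with edgeR adjusted p of 0.00981, 3.56e-05 and 1.11e-08. This pair pointed the same way in all 3 lines.

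Of other autophagy genes, 4 of 36 were higher and 4 lower in MKN1, 9 of 35 higher and 6 lower in MKN7, and 11 of 34 higher and 5 lower in NCI-N87. The shares of autophagy genes called higher were close to those of all genes, and the shares called lower were below them. The largest rises were those of the receptor OPTN in MKN1 (0.58) and of MAP1LC3A, a relative of MAP1LC3B, in MKN7 (0.85) and NCI-N87 (1.50). The largest falls were those of ATG12 in MKN1 (−0.52) and of ATG16L1 in MKN7 (−0.56) and NCI-N87 (−0.95), which act together in the attachment of these proteins to membranes. Of other membrane and sorting proteins, 2 of 16 were higher and 1 lower in MKN1, 6 of 17 higher and 2 lower in MKN7, and 6 of 17 higher and 4 lower in NCI-N87, with the share higher close to that of all genes in MKN1 and NCI-N87 and somewhat above it in MKN7. The sialic acid transporter SLC17A5 rose most in MKN1 (0.39) and MKN7 (1.04), and CLN3 in NCI-N87 (1.33, edgeR adjusted p = 0.0108). The mannose 6-phosphate receptor M6PR fell most in MKN1 (−0.22) and MKN7 (−0.36), and LAPTM4B in NCI-N87 (−0.90). Of 15 genes of the Rag, folliculin and mTORC1 list, 2 were higher in MKN1 (RRAGB 0.54), 2 were higher and 3 lower in MKN7 (TSC1 0.58, FNIP2 −0.60), and 5 were higher and 5 lower in NCI-N87 (TSC1 0.66, FNIP2 −1.66), none of these shares being far above those of all genes. In Hs746T, 0 genes of these lists were called, with 4 hydrolases at an unadjusted p under 0.05.

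Trastuzumab was compared with untreated cells, and its combination with afatinib with each single treatment. Trastuzumab alone gave 0 calls among these genes in 8 comparisons with edgeR (0% of all tests) and with DESeq2, also in NCI-N87, the line classed as a responder to it, and 4 tests had an unadjusted p under 0.05. The replicate block gave 1 call (0.0467% of all tests), CTSF in MKN7 at 24 h (0.29). Trastuzumab + afatinib against afatinib also gave 0 calls in 8 comparisons with edgeR (0%) and DESeq2, with 0 tests at an unadjusted p under 0.05. The replicate block called 0 there too (0% of all tests). The fits without the block leave out the shifts that same-numbered libraries share, so their p-values may be too large. Counts of 0 calls therefore do not show that a treatment had no effect. In NCI-N87 at 24 h GRN stood at 230.3, 199 and 203 CPM with trastuzumab and 504, 546 and 537 CPM with the combination. GABARAPL1 stood at 43.4, 38.4 and 45.4 and 119, 117 and 131 CPM in the same groups. For both genes the libraries with the combination lay above those with trastuzumab alone, without overlap.

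Trastuzumab + afatinib against untreated cells gave 52 calls higher (11.5% of all tests) and 18 lower (12%) over 8 comparisons. At 24 h the counts were 11 higher and 2 lower in MKN1 (12.7% and 14.1% of all genes), 14 and 3 in MKN7 (26.8% and 25.1%) and 13 and 10 in NCI-N87 (32.7% and 32%). The share of these genes called higher was thus above that of all genes in MKN1 and MKN7 and close to it in NCI-N87. In Hs746T edgeR called 0 (0%), with 1 at an unadjusted p under 0.05. Past the fold limit at 24 h were CTSS in MKN1 (1.05), GAA (1.01) and GABARAPL1 (1.31) in MKN7, and 6 genes in NCI-N87. These were CTSS (1.86), GABARAPL1 (1.79), GRN (1.52), ULK1 (1.51), NEU1 (1.26) and MITF, which fell (-1.07 ± 0.37 (SE), adjusted p = 0.0143). MITF stood at only 1.00, 0.937 and 0.825 CPM untreated and 0.659, 0.360 and 0.277 CPM with the combination. At 4 h GABARAPL1 in MKN7 (1.12) and ULK1 in NCI-N87 (1.45) passed the limit. The replicate block gave 82 calls higher and 30 lower (16.6% and 17.2%), library size alone 75 and 6 (15.4% and 8.37%), and the count higher was 32 without replicate 3 and the count lower 7 without replicate 1 and 10 without replicate 3.

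The comparisons with untreated cells share their control libraries. Trastuzumab + afatinib was therefore also set against trastuzumab at 24 h, a comparison added after seeing the data, which uses none of the libraries of afatinib against untreated. It gave 36 calls higher (16.8%) and 13 lower (16.8%) over 4 comparisons, with 11 and 3 in MKN1 (12.9% and 14.9% of all genes), 13 and 1 in MKN7 (22.8% and 21.6%) and 12 and 9 in NCI-N87 (31.5% and 30.3%). In Hs746T edgeR called 0 (0%), with 0 at an unadjusted p under 0.05. CTSS in MKN1 went from 1.72, 2.48 and 2.62 CPM with trastuzumab to 5.87, 4.66 and 7.13 CPM with the combination (log2FC 1.37 ± 0.19 (SE), adjusted p = 3.5e-06). In NCI-N87 CTSS (1.66), GABARAPL1 (1.53), GRN (1.33), ULK1 (1.29) and NEU1 (1.15) passed the fold limit. All 5 of these had also passed it with afatinib against untreated cells, where 29.6% of all genes did. The share of all genes that passed in both comparisons was not counted, so the overlap is not read as particular to these genes. The block gave 25 lower (21.8%), library size alone 52 higher and 5 lower (23.8% and 11%), and without replicate 3 the counts were 22 and 7.

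EGF and cetuximab were compared in MKN1 and Hs746T to show the response of these genes to the ligand and to the antibody against its receptor. In MKN1 at 24 h EGF raised CTSL and lowered GABARAPL1, ULK1 and several hydrolases. EGF gave 6 calls higher (17.3% of all genes) and 8 lower (18.5%), near the shares of all genes. CTSL went from 210.1, 240.3 and 263 CPM untreated to 434, 481 and 516 CPM with EGF (log2FC 1.00 ± 0.14 (SE), adjusted p = 1.07e-06). GABARAPL1 fell from 68.5, 64.9 and 30.2 to 26.2, 29.3 and 16.0 CPM (-1.20 ± 0.32 (SE), adjusted p = 0.00335), and these 2 genes were the ones past the fold limit. ULK1 fell from 91.0, 73.3 and 68.6 to 50.0, 36.5 and 52.7 CPM (-0.74 ± 0.13 (SE), adjusted p = 3.91e-05). The groups did not overlap for any of the 3. Also lower were MITF (-0.58), GAA (-0.57), CTSH (-0.51), CTSF (-0.46), GRN (-0.29) and PSAP (-0.28). Also higher were CTSZ (0.37), ATP6V1D (0.37), MAP1LC3B (0.31), MCOLN1 (0.24) and ATP6V1B2 (0.19). The groups of MCOLN1 overlapped.

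Of the 8 genes lower with EGF, GAA, CTSH, CTSF, GRN, PSAP and ULK1 were called higher with afatinib in the same line, with log2FC of 0.69, 0.65, 0.52, 0.47, 0.50 and 0.49. The 2 comparisons share the 3 untreated libraries. Of all genes lowered by EGF, the share that afatinib raised was not counted, so the overlap is not read as particular to these genes. With library size alone the median over all genes shifted by −0.20 on the log2 scale, and 1 gene was higher and 16 were lower (8.19% and 31.6%), and without replicate 1 there was 1 higher and 3 lower. At 4 h CTSL alone was called (0.56 ± 0.14 (SE), adjusted p = 0.00817, 6.82% of all genes called), it was not called without replicate 1, 2 genes were called without replicate 2, and the replicate block gave 5 (17%).

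Cetuximab in MKN1 at 24 h gave 3 calls higher (4.92% of all genes) and 1 lower (5.91%). CTSS went from 3.38, 3.02 and 2.10 to 5.06, 3.48 and 5.38 CPM (log2FC 0.70 ± 0.19 (SE), adjusted p = 0.0146). GRN went from 455, 468 and 411 to 610.4, 435 and 577 CPM (0.28 ± 0.09 (SE), adjusted p = 0.0318) and CTSH from 51.8, 57.6 and 50.0 to 73.9, 54.0 and 78.9 CPM (0.37 ± 0.12 (SE), adjusted p = 0.0449). Cetuximab replicate 2 lay inside the untreated range for GRN and CTSH, while replicates 1 and 3 lay above it. ATP6V1B2 was lower (-0.17). The count higher was 0 without replicates 1 or 3 and 9 without replicate 2, the block gave 12 higher and 3 lower (14.6% and 15.7%), and library size alone 8 and 0 (7.23% and 3.57%). At 4 h edgeR and DESeq2 called 0 (1.43% of all genes with edgeR), with 1 at an unadjusted p under 0.05.

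With EGF present, cetuximab (EGF + cetuximab against EGF) gave 0 calls in MKN1 at 4 h and 24 h with edgeR (0.674% of all tests), 1 with DESeq2, and 3 tests at an unadjusted p under 0.05. CTSL stood at 434, 481 and 516 CPM with EGF and 303, 329 and 366 CPM with EGF + cetuximab at 24 h (-0.52 ± 0.14 (SE), adjusted p = 0.0742). Each EGF + cetuximab library lay below every EGF library and above every untreated one. With the replicate block there were 3 calls (5.6%), CTSL at 24 h (-0.52) and 4 h (-0.34) and ATP6V0A1 at 4 h (-0.18), and without replicate 3 there was 1. In Hs746T, EGF, cetuximab and EGF + cetuximab gave 0 calls in 6 comparisons with edgeR (0%) and DESeq2, with 3 tests at an unadjusted p under 0.05. As for trastuzumab, these fits leave out the shifts that same-numbered libraries share.

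**Figure D5:**
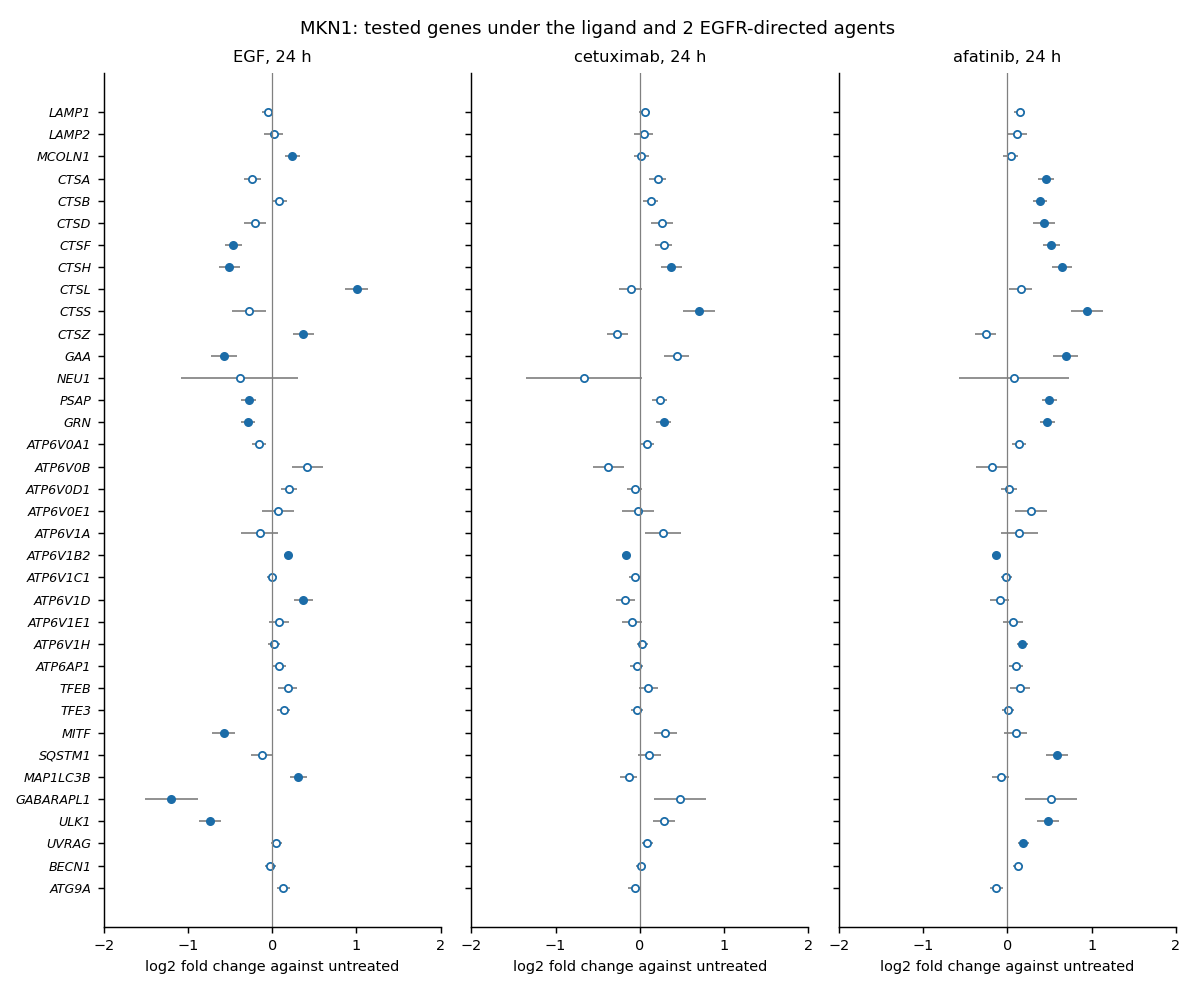
Log2FC against untreated cells in MKN1 at 24 h for EGF, cetuximab and afatinib (panels), with a row per gene, a point at the estimate, a line of ± 1 SE, and filled points at an adjusted p below 0.05. CTSL lies at 1.00 and GABARAPL1 at −1.20 with EGF, and the filled points of the afatinib panel lie to the right of 0 except for ATP6V1B2 (−0.13).

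Untreated cells at 24 h were compared with those at 4 h as a measure of change in culture. Over the 4 lines 8 calls were made (13.3% of all tests). GABARAPL1 was lower at 24 h in Hs746T (-0.56) and NCI-N87 (-0.53) and higher in MKN7 (0.53). In MKN1 ULK1 (0.64) and CTSF (0.28) were higher and CTSL (-0.52), MAP1LC3B (-0.43) and MCOLN1 (-0.27) lower. GABARAPL1 and ULK1, the genes with early rises under afatinib, thus also differed between the untreated time points in some lines. In NCI-N87 the changes with time of GABARAPL1 (-0.53) and ULK1 (0.07) were smaller in size than their rises under afatinib. In MKN1 the change of ULK1 with time (0.64) was larger than its rise after 24 h of afatinib. GABARAPL1 in MKN1 differed by 0.71 with time, which edgeR did not call (adjusted p = 0.0795). The count was 19 with library size alone (13.6% of all tests), 4 with the compared groups only and 5 without replicate 1.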

How the data were processed

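The deposited files hold, per the labels and the values, raw counts for each Ensembl gene identifier, 1 file per library. The authors selected poly(A) RNA, made directional libraries and sequenced them paired end. The submitters' processing notes name Trim Galore and STAR and the build hg38. The counting tool, its strand setting and the annotation are not given in the sources used here, so reads of overlapping genes may have been dropped or shared. GENCODE release 29 (GRCh38) gave gene names, and 8404 identifiers, with 0.0422% of the counts, are not in it.

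Tests used the deposited counts and edgeR 4.0.16 under R 4.3.3, with TMM factors, the quasi-likelihood functions glmQLFit and glmQLFTest, and Benjamini-Hochberg adjustment over all genes tested. Genes passed filterByExpr at min.count 10 and min.total.count 15. Each cell line was fitted with 1 mean per treatment and time, and all libraries together for comparisons between lines. A gene was called higher or lower at an adjusted p below 0.05, and the fold limit was an absolute log2FC above 1. The genes and lists were chosen with earlier results of these data known. Named in each comparison were genes past the fold limit, TFEB, TFE3 and MITF under afatinib, the largest rise and fall of each role at 24 h, and, of the other lists, the 1 gene with the largest rise and the 1 with the largest fall. Further genes were described after their values were seen. The fit was also run on simulated NCI-N87 counts without shifts shared by same-numbered libraries, so that run could not test how such shifts affect the calls. CPM used TMM factors, and levels per kb used the total exon length.

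Alternatives were DESeq2 1.42.0, library size alone, the compared groups only, no filter, a filter of at least 10 counts per gene and library, the replicate number as a block, leaving out each replicate, and, added after seeing the data, leaving out genes inside other genes or near 0. Same-numbered libraries of the compared groups deviated together, with a correlation over 0.1 in every pair in 54 of 56 contrasts, and the exceptions were MKN1 trastuzumab + afatinib against afatinib and against trastuzumab at 24 h (lowest −0.00996). Depth limits apply to counting error only. Promoters came from RefSeq, and plots were drawn with matplotlib 3.10.9 in Python 3.11.15.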

Additional observations from a re-analysis of the deposited data

Results flagged for a closer look

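The 24 h effect of afatinib differed between cell lines for 38 of the pairs of gene and lines tested as interactions with edgeR at an adjusted p below 0.05. Over all genes, 4.41% differed between MKN1 and Hs746T, 18.8% between MKN7 and Hs746T and 35.1% between NCI-N87 and Hs746T. Between MKN1 and NCI-N87 28% differed, between MKN7 and NCI-N87 21.4% and between MKN1 and MKN7 7.61%. None of the shares of the listed genes lay far above these, so the differences are not read as particular to them. The values are differences in log2FC between the first and the second line named.

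For MKN1 minus Hs746T they were GAA (0.70) and PSAP (0.50). For MKN7 minus Hs746T they were CTSA (0.45), GAA (0.96), PSAP (0.68), SQSTM1 (0.65), GABARAPL1 (1.47) and ULK1 (1.06). For NCI-N87 minus Hs746T they were CTSA (0.75), CTSB (0.97), CTSF (2.06), CTSS (1.88), CTSZ (−0.74), GAA (0.71), NEU1 (1.10), PSAP (0.73), GRN (1.58), ATP6V1C1 (−0.46), MAP1LC3B (−0.49), GABARAPL1 (1.99) and ULK1 (1.63). CTSF in NCI-N87 rests on levels between 0.298 and 7.13 CPM and was not called within that line.

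For MKN1 minus NCI-N87 they were CTSA (−0.40), CTSB (−0.56), CTSS (−0.98), CTSZ (0.47), GRN (−1.17), ATP6V1C1 (0.42), TFEB (0.72), MAP1LC3B (0.44), GABARAPL1 (−1.30) and ULK1 (−1.03). For MKN7 minus NCI-N87 they were CTSB (−0.71), CTSL (1.38), CTSS (−1.32), CTSZ (0.60), GRN (−1.11), ATP6V1C1 (0.44) and MAP1LC3B (0.57). CTSL in MKN7 rests on levels between 1.32 and 7.66 CPM and was not called within that line. The groups of 3 libraries were too small for a search for single outlying libraries.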

How the results depend on the processing

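Counts of called genes are given for each alternative where they moved by over 1.5 times, and the cause of the moves was not tested beyond what each alternative changes. Shares of all genes under library size alone and the replicate block stand with many of the results above. For the other alternatives they are not given, so a moved count, here or above, has no background beside it. Such moves are not read as results about these genes. Single-gene values were followed through every alternative only for the genes called at 24 h of afatinib in MKN1, MKN7 and NCI-N87. Each of those values kept its direction except 3 with library size alone, all in NCI-N87 (ATP6V1B2 0.0272, UVRAG 0.0512 and MCOLN1 0.0496). Of the 52 such values, calls were lost for 8 with library size alone (these 3 included), 2 with DESeq2, 8 without a filter, 6 with at least 10 counts in every library and 9 with the compared groups only, and for 12, 11 and 14 without replicates 1, 2 and 3.

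With library size alone, 0 genes were lower and 1 passed the fold limit for afatinib in MKN1 at 24 h, 11 were higher in MKN7 at 4 h, and 0 were lower and 5 passed the fold limit in MKN7 at 24 h. In NCI-N87, 1 passed the fold limit at 4 h, and at 24 h 23 were higher, 4 lower and 8 past the fold limit. Trastuzumab + afatinib lowered 6 against untreated cells and 5 against trastuzumab. EGF in MKN1 gave 1 higher and 16 lower at 24 h and 2 calls at 4 h, cetuximab 8 higher and 0 lower, and time in untreated cells 19 calls. The afatinib effect differed for 5 genes between MKN1 and Hs746T and for 1 between MKN1 and MKN7.

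Without a filter, 0 genes were lower for afatinib in MKN1 at 24 h, 3 were higher in NCI-N87 at 4 h and 5 lower at 24 h, cetuximab gave 1 higher and 0 lower, and 1 gene differed between MKN1 and Hs746T. With at least 10 counts in every library, 0 were lower in MKN1 and 1 in MKN7 at 24 h, 1 passed the fold limit in NCI-N87 at 4 h, 5 were lower there at 24 h, cetuximab gave 5 higher, and 6 genes differed between MKN1 and Hs746T and 1 between MKN1 and MKN7. With the compared groups only, 0 were lower in MKN1 at 24 h, 0 in MKN7 at 4 h and 1 at 24 h with 2 past the fold limit, EGF raised 1 at 24 h, cetuximab gave 0 in either direction, time 4 calls, and 0 genes differed between MKN1 and Hs746T and 13 between MKN7 and NCI-N87. With DESeq2, 2 were lower in MKN7 at 4 h, cetuximab gave 5 higher, EGF + cetuximab against EGF 1 call, and 4 genes differed between MKN1 and Hs746T. Leaving out genes inside other genes or near 0, chosen after seeing the data, gave 0 lower for afatinib at 4 h in MKN7 and in NCI-N87, 1 past the fold limit in NCI-N87 at 4 h, and 8 past it between untreated MKN7 and NCI-N87.

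With the replicate block, afatinib gave 1 higher and 1 lower in MKN1 at 4 h, 3 lower in MKN1 at 24 h, 12 higher and 2 lower in MKN7 at 4 h, 5 lower and 2 past the fold limit in MKN7 at 24 h, 3 lower and 1 past the fold limit in NCI-N87 at 4 h, and 14 higher and 1 lower at 4 h and 1 higher at 24 h in Hs746T. Trastuzumab + afatinib gave 82 higher and 30 lower against untreated cells and 25 lower against trastuzumab, and trastuzumab 1 call. EGF in MKN1 at 4 h gave 5 calls, cetuximab at 24 h 12 higher and 3 lower, and EGF + cetuximab against EGF 3 calls. The differences in afatinib effect were called for 13 genes (MKN1 and Hs746T), 9 (MKN1 and MKN7), 24 (MKN1 and NCI-N87), 18 (MKN7 and Hs746T), 20 (MKN7 and NCI-N87) and 23 (NCI-N87 and Hs746T). The block lost none of the 52 single-gene calls and moved no other count by over 1.5 times. Comparisons of untreated lines and times have no shared block.

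Leaving out 1 replicate at a time, the counts for afatinib ran from 7 to 16 higher, 0 to 4 lower and 0 to 1 past the fold limit in MKN1 at 24 h, from 4 to 6, 0 to 1 and 0 to 1 in MKN7 at 4 h, from 10 to 14, 0 to 4 and 1 to 2 in MKN7 at 24 h, from 2 to 3, 1 and 1 to 2 in NCI-N87 at 4 h, and from 12 to 14, 4 to 7 and 5 to 7 in NCI-N87 at 24 h. Trastuzumab + afatinib gave 32 to 52 higher and 7 to 17 lower against untreated cells, and 22 to 37 higher and 7 to 11 lower against trastuzumab. EGF in MKN1 gave 1 to 5 higher and 3 to 9 lower at 24 h and 0 to 2 calls at 4 h, cetuximab 0 to 9 higher and 0 lower, EGF + cetuximab against EGF 0 to 1, and time in untreated cells 5 to 11. The afatinib effect differed for 0 to 3 genes between MKN1 and Hs746T, 0 to 1 between MKN1 and MKN7, 6 to 11 between MKN1 and NCI-N87, 4 to 7 between MKN7 and Hs746T, 5 to 10 between MKN7 and NCI-N87, and 10 to 14 between NCI-N87 and Hs746T. Low counts limit chiefly NEU1 in MKN1 and MKN7, CTSF in NCI-N87 and CTSL in MKN7. The reason for the low counts of NEU1 was not tested.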
